A study of Mus musculus with 10 samples.

Results

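The genes described here are 10 members of the TGF-β and BMP pathways, chosen by name from the 55401 genes of the count table: the ligands Tgfb1, Tgfb2, Tgfb3, Inhba, Bmp4 and Bmp7, the receptor Tgfbr2, the inhibitor Smad7 and the target genes Id1 and Id3. RNA was measured in 10 subcutaneous tumors of KPN1.1, a mouse lung adenocarcinoma line grown in male C57BL/6J mice with diet-induced obesity. The mice were 7 to 17 weeks old at the injection of 75000 cells into the flank. From the time of a palpable tumor, mice received daily intraperitoneal liraglutide, a GLP-1 receptor agonist, at 0.2 μg per gram of body weight, or the PBS vehicle, with euthanasia 19 to 22 days after inoculation, and 5 tumors of each group were analysed. All tumors came from a single cell line and from obese hosts, and a fragment of each was sequenced, so the RNA is that of tumor cells and host cells together.

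TGF-β, activins and BMPs are secreted dimers of one protein superfamily. They bind pairs of type I and type II receptor kinases, and the receptors phosphorylate SMAD proteins, which enter the nucleus with SMAD4. TGF-β and activin signal mostly through SMAD2 and SMAD3, and BMPs through SMAD1, SMAD5 and SMAD9. TGF-β is known to restrain epithelial growth and T cells and to drive matrix production by fibroblasts, and in lung tumors it is also studied for its part in invasion. BMP signals raise the ID genes, whose products bind and block basic helix-loop-helix transcription factors, and both branches induce the inhibitory SMADs that close a feedback loop.

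Total counts ranged from 9927942 to 14480593 per tumor, and values are CPM, counts relative to the library total as scaled by the TMM method, for which 3 counts correspond to 0.207 to 0.315 CPM. The cell type was checked with markers. The keratin gene Krt8 was between 1631 and 3294 CPM and the E-cadherin gene Cdh1 between 559.9 and 2236 CPM in the 10 tumors, while Epcam was at most 4.63 CPM. Among lung genes, Nkx2-1, the lineage transcription factor of lung epithelium, was between 17.7 and 95.4 CPM with vehicle and between 52.2 and 132 CPM with liraglutide (log2 fold change 0.99, edgeR p = 0.0495, adjusted p = 0.520; exact permutation test, p = 0.0635), and of the surfactant protein genes, Sftpc was at most 5.96 CPM and Sftpb between 65.1 and 530.3 CPM. Of 8 cell type marker lists, keratinocyte markers had the smallest p between treatments. Their summed CPM was between 91.0 and 328 with vehicle and between 290.0 and 558 with liraglutide (two-sided exact permutation test, p = 0.0238, adjusted p = 0.191 over the 8 lists), with 7 of 8 markers detected. On average most of that sum was Dsp alone, at a mean of 209.5 CPM with vehicle and 345.6 CPM with liraglutide. Krt5 and Krt1 had a minimum of 0 CPM in each group. The log2 fold change was above 0 for all 6 tested keratinocyte markers, at a median of 2.06, and 4 of the 6 had an unadjusted edgeR p under 0.05. By the exact permutation test none of the 6 did, with p from 0.111 (Dsp) to 0.302 (Krt10). For each of them, 3 liraglutide tumors lay above all vehicle tumors. Skeletal muscle markers summed to between 44.8 and 302 CPM with vehicle and between 99.1 and 402 CPM with liraglutide (exact permutation test, p = 0.103, adjusted p = 0.413), and the log2 fold change was above 0 for all 7 tested, at a median of 0.91. Lung markers summed to between 124 and 669 CPM with vehicle and between 238 and 615 CPM with liraglutide (exact permutation test, p = 0.452, adjusted p = 0.787), and 5 of 6 tested were positive, with a median log2 fold change of 0.85, the exception being Sftpb at -0.10. Fibroblast markers summed to between 1446 and 3533 CPM with vehicle and between 1922 and 3606 CPM with liraglutide, with all 8 detected, and no marker found in the table was at 0 in all 10 tumors. The part of any cell type in the values below was not tested, and in bulk tissue fewer cells of a type and less RNA per cell cannot be told apart.

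The windows around the start sites of Tgfb2 and Bmp4 are shown because these ligands had the largest positive fold changes of the members, that of Id3 because it is the ID gene of the set with a sequence, and that of Smad6, an inhibitory SMAD gene described below, because it was the one of 8 windows searched that held a SMAD palindrome, and it was chosen after that match was seen. The sequences are RefSeq windows on GRCm38.p6 from 250 bases before to 50 bases after the start, in the direction of the gene, and 6 of the 10 members had such a window. Letters in capitals mark matches, on either strand, to the palindromic SMAD box GTCTAGAC, to CAGACA, which shares the letters AGAC with it, to the GC-rich sequence GGCGCC or to the TATAAA element.
Tgfb2, chr1:186705940-186706239, minus strand: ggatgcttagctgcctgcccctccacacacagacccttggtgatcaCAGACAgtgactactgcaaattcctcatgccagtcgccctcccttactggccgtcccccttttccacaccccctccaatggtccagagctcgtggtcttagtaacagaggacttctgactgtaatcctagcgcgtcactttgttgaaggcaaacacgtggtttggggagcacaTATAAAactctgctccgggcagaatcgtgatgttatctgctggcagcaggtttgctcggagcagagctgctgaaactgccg
Bmp4, chr14:46390620-46390919, minus strand: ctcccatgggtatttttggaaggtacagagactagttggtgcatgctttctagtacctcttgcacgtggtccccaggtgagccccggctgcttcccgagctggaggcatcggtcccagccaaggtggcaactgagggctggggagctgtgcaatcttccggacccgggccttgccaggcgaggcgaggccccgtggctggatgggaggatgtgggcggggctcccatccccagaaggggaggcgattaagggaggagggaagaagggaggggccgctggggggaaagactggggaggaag
Id3, chr4:136143572-136143871, plus strand: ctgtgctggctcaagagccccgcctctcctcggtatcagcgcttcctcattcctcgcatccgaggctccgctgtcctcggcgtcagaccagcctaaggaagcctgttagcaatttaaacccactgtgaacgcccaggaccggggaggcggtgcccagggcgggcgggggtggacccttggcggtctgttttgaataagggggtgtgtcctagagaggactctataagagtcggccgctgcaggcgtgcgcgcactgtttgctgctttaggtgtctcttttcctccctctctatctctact
Smad6, chr9:64022010-64022309, minus strand: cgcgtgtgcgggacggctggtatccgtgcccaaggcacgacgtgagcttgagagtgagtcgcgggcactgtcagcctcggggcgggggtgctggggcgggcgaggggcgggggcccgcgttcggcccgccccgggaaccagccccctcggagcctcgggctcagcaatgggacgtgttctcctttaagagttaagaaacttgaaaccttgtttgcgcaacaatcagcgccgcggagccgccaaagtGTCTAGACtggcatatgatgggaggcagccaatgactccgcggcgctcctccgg
The window of Tgfb2 held CAGACA at 204 bases and TATAAA at 31 bases before the start, and those of Bmp4 and Id3 held none of the 4 sequences. Among 32851 windows of the same length, 0.213% held GTCTAGAC, 21.0% held CAGACA, 11.9% held GGCGCC and 13.6% held TATAAA. The 8 windows, those of 6 members and of Smad6 and Atoh8, were searched for 9 sequences, and the 4 above were kept after the matches were seen. Of the other 5, the E-box CAGCTG was in 2 of the 8 windows, the E-box CACCTG in 1, the CCAAT box in 3, the CRE sequence TGACGTCA in 0 and the AP-1 sequence TGACTCA in 0. With so many searched, the share of all windows is not the chance of a single match among them, and a match is a description of letters and not of a bound site.

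All 10 members passed the filter on low counts. Compared per kilobase of exon, so that genes of different length can be ranked, Id1 had the highest mean level in the vehicle tumors at 34.0 ± 17.9 CPM per kilobase (SD, n = 5 tumors), followed by Inhba at 27.1 ± 16.2 and Smad7 at 26.5 ± 6.68. Bmp7 (20.3 ± 22.8), Tgfb1 (18.6 ± 6.80), Id3 (13 ± 4.41) and Tgfbr2 (11.5 ± 3.23) came next, and Bmp4 (4.83 ± 4.13), Tgfb3 (2.77 ± 1.00) and Tgfb2 (0.895 ± 0.257) were lowest. With liraglutide Id1 was again first at 48.8 ± 22.2 CPM per kilobase, and Tgfb3 and Tgfb2 were again last at 3.71 ± 0.747 and 1.56 ± 0.521. Bmp4 stood above Bmp7 there, at 11.5 ± 4.28 against 4.07 ± 5.43 CPM per kilobase. In both groups only Tgfb3 and Tgfb2 had tumor ranges that did not overlap, while every other pair of neighbors in the order overlapped. Among the TGF-β isoforms the order per kilobase was therefore Tgfb1, Tgfb3 and Tgfb2 in each group. The length used is that of all annotated exons of a gene together, whichever of its transcripts the tumors expressed.

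The comparison of liraglutide with vehicle asks how the drug given to obese mice altered tumor gene expression. With edgeR's quasi-likelihood test and Benjamini-Hochberg adjustment, no member passed the call rule (adjusted p under 0.05 together with a log2 fold change beyond 0.58 in either direction), as was true of 0 of all 17464 genes tested (0.0%). At an unadjusted p under 0.05, 3 of the 10 members were higher with liraglutide (Tgfb2, Tgfbr2 and Bmp4) and 0 were lower, against 3.97% of all tested genes higher and 5.62% lower (694 and 981 genes). With library size alone as the scaling, these were 990 higher and 619 lower genes, and the same 3 members passed. DESeq2's Wald test called 17 genes (0.448% of those given an adjusted p) and limma-voom 0, with no member among them, although DESeq2 gave no adjusted p for Tgfb2, Tgfb3, Bmp4, Bmp7 and Id3, and the same 3 members had an unadjusted p under 0.05 in either. In 6 of the 10 members the log2 fold change was positive, with a median of 0.33 over the members against -0.02 over all tested genes, of which 47.4% were positive. None of the 10 members had groups that did not overlap in CPM, against 1.49% of all tested genes (0.607% higher and 0.888% lower).

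Tgfb1 encodes the most widely produced TGF-β isoform and occupies bases 25386390 to 25404506 of chromosome 7 (GRCm39, as for all genes below), plus strand. Its vehicle tumors 1 to 5 were at 127, 116, 116, 55.1 and 58.9 CPM, and its liraglutide tumors at 101, 103, 72.0, 88.4 and 71.0 CPM. All 5 liraglutide values lay inside the range of the vehicle tumors, which split into 3 high and 2 low values. The log2 fold change was -0.12 (standard error 0.25, edgeR adjusted p = 0.882), with a 95% interval from -0.66 to 0.42, and it was 0.01 without vehicle tumor 1.

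Tgfb2, an isoform with roles in epithelial and mesenchymal tissues, lies on chromosome 1 from 186354985 to 186438294 on the minus strand and was the lowest member per length. Values were 7.39, 6.69, 3.25, 5.69 and 4.97 CPM in vehicle tumors 1 to 5 and 13.99, 5.31, 11.6, 8.97 and 8.93 CPM in liraglutide tumors 1 to 5. Apart from liraglutide tumor 2, every liraglutide tumor lay above all vehicle tumors. The means were 5.60 ± 1.60 and 9.76 ± 3.26 CPM (SD, n = 5 each), a log2 fold change of 0.80 (standard error 0.28, edgeR p = 0.0157, adjusted p = 0.482; exact permutation test, p = 0.0476). With single tumors left out, the fold change stayed between 0.63 and 0.96 on the log2 scale.

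Tgfb3 is the isoform best known from palate fusion and scarless repair, on chromosome 12 from 86102756 to 86126301, minus strand. It measured 21.97, 16.6, 14.4, 9.62 and 9.53 CPM with vehicle and 17.2, 20.7, 13.8, 21.0 and 23.9 CPM with liraglutide. A single liraglutide tumor, number 5, exceeded the highest vehicle tumor, so the groups overlapped over most of their range. Its log2 fold change of 0.42 had a standard error of 0.24 and an edgeR adjusted p of 0.593. It ran from 0.31 to 0.62 with single tumors left out, and Tgfb3 was higher at an unadjusted edgeR p under 0.05 without vehicle tumor 1.

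Tgfbr2 encodes the type II receptor kinase that binds TGF-β first and then recruits the type I receptor, and it lies on chromosome 9 from 115913361 to 116004800, minus strand. The vehicle tumors were at 69.8, 79.9, 113, 142 and 103 CPM and the liraglutide tumors at 166, 106, 209, 141 and 203 CPM. Liraglutide tumors 1, 3 and 5 lay above every vehicle tumor, and tumors 2 and 4 lay within the vehicle range. Means were 101 ± 28.4 and 165 ± 43.3 CPM (SD, n = 5 each), with a log2 fold change of 0.70 (standard error 0.23, edgeR p = 0.00971, adjusted p = 0.482; exact permutation test, p = 0.0397). Over the alternatives its edgeR or DESeq2 adjusted p ranged from 0.102 to 0.900.

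Inhba encodes the activin A subunit, a ligand of the SMAD2 and SMAD3 branch, and lies on chromosome 13 from 16186373 to 16206206, plus strand. It measured 250, 329, 235, 102 and 48.0 CPM in the vehicle tumors and 157, 240, 101, 156 and 58.1 CPM in the liraglutide tumors. The liraglutide tumors lay inside the vehicle range, and the lowest tumor of each group was number 5. The log2 fold change of -0.44 (standard error 0.49, edgeR adjusted p = 0.768) had an interval from -1.51 to 0.63, and was -0.16 without vehicle tumor 2 and -0.70 without liraglutide tumor 2.

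**Figure D1:**
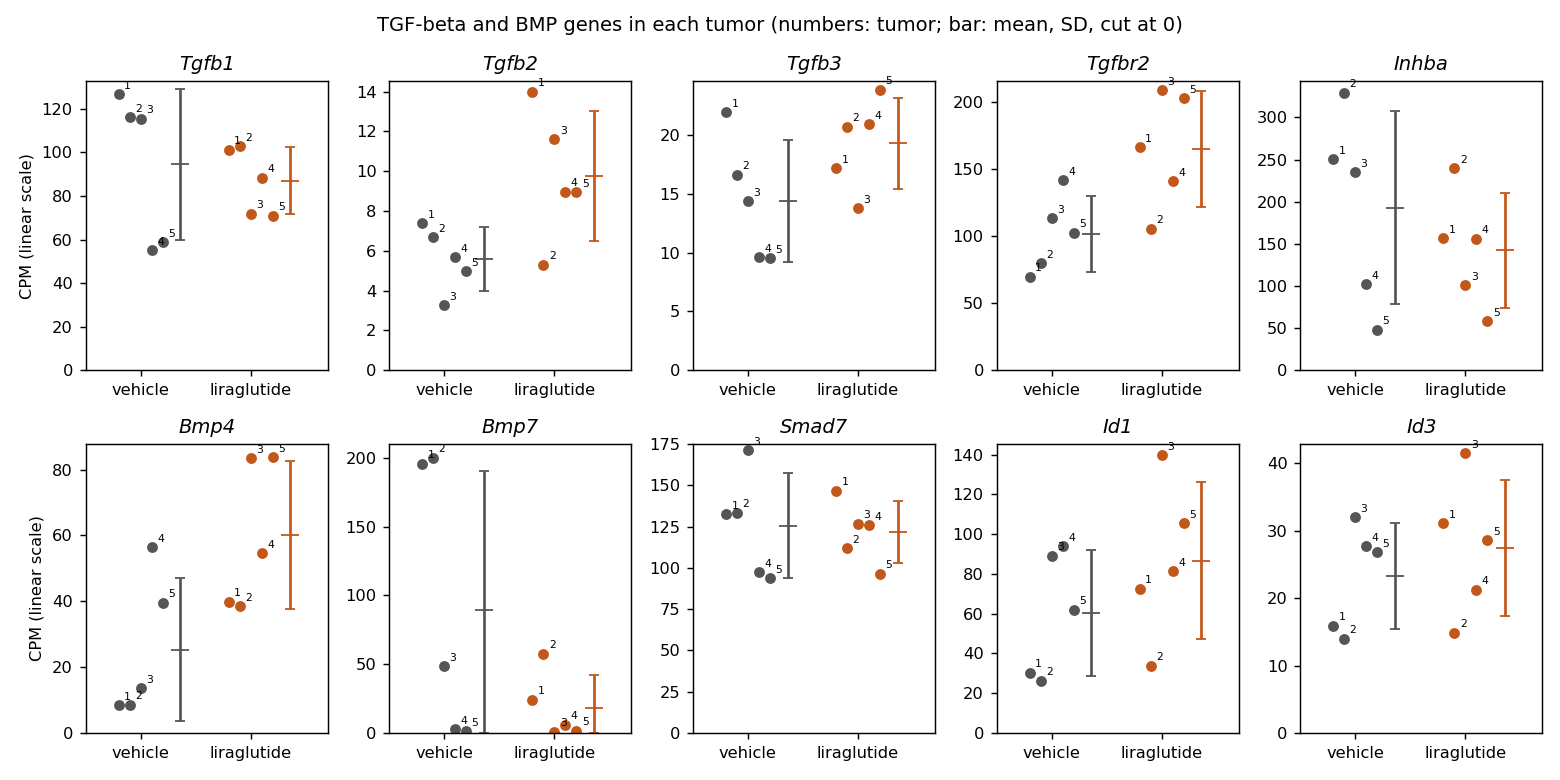
Level of each of the 10 genes in every tumor, in CPM on a linear axis from 0, with vehicle tumors in grey and liraglutide tumors in orange. Small numbers name the tumor, and bars give the mean and SD of the 5 tumors, cut at 0. The groups overlap in every panel, and Bmp7 runs from 0.834 to 200.2 CPM.

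Bmp4, a BMP ligand with roles in mesoderm and lung development, lies on chromosome 14 from 46620250 to 46636745 on the minus strand. Its 5 vehicle tumors were at 8.36, 8.52, 13.6, 56.5 and 39.5 CPM, and the liraglutide tumors at 39.9, 38.5, 83.4, 54.6 and 83.8 CPM. Vehicle tumors 1, 2 and 3 lay below every liraglutide tumor, and vehicle tumors 4 and 5 lay within the liraglutide range. Group means were 25.3 ± 21.7 and 60.05 ± 22.4 CPM (SD, n = 5 each), a log2 fold change of 1.25 (standard error 0.53, edgeR p = 0.0381, adjusted p = 0.515; exact permutation test, p = 0.0635). Its unadjusted p was no longer under 0.05 without any one of vehicle tumors 1, 2 or 3 or liraglutide tumors 3, 4 or 5, and the log2 fold change ran from 1.02 to 1.79 with single tumors left out.

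Bmp7, a BMP ligand that acts in kidney and brown fat, lies on chromosome 2 from 172709805 to 172782410, minus strand, and was the most variable member, with a 240-fold range over the tumors. It measured 196, 200.2, 48.3, 2.59 and 1.22 CPM with vehicle and 24.2, 57.5, 0.834, 5.95 and 1.56 CPM with liraglutide. High and low tumors were present in both groups, and its counts ran from 11 to 2833. The vehicle mean was 89.6 ± 100.7 CPM and the liraglutide mean 18.0 ± 24.0 CPM (SD, n = 5 each), so each SD exceeded its mean. The log2 fold change of -2.32 had a standard error of 1.34, an interval from -5.26 to 0.62 and an edgeR adjusted p of 0.590 (exact permutation test, p = 0.341). It was -3.47 without liraglutide tumor 2, where Bmp7 was lower at an unadjusted edgeR p under 0.05, and -1.79 without vehicle tumor 2. The pair of tumors with the most Bmp7, vehicle tumors 1 and 2, had the least Bmp4, and the pair with the most Bmp4, liraglutide tumors 3 and 5, had 0.834 and 1.56 CPM of Bmp7.

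Smad7 encodes an inhibitory SMAD that blocks the type I receptors, is induced by TGF-β, and lies on chromosome 18 from 75500374 to 75529006, plus strand. It varied least of the members, at 133, 134, 171, 97.3 and 93.7 CPM with vehicle and 147, 112, 127, 126 and 96.6 CPM with liraglutide. The liraglutide values lay inside the vehicle range. The log2 fold change was -0.05 (standard error 0.17, edgeR adjusted p = 0.942) with an interval from -0.43 to 0.34, and it turned to 0.01 with library size alone as the scaling.

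Id1 and Id3 encode inhibitors of DNA binding that respond to BMP, and lie on chromosome 2 from 152566218 to 152579544 and on chromosome 4 from 135870808 to 135873066, both on the plus strand. Id1 was at 30.2, 26.2, 89.3, 94.1 and 62.1 CPM in the vehicle tumors and at 72.5, 33.9, 140, 81.4 and 106 CPM in the liraglutide tumors. Id3 was at 15.9, 13.99, 32.02, 27.7 and 26.8 CPM in the vehicle tumors and at 31.1, 14.9, 41.5, 21.3 and 28.6 CPM in the liraglutide tumors. Vehicle tumors 1 and 2 and liraglutide tumor 2 were the 3 lowest tumors for both genes, and liraglutide tumor 3 was the highest for both. The log2 fold changes were 0.52 for Id1 (standard error 0.42, edgeR adjusted p = 0.686) and 0.24 for Id3 (standard error 0.30, edgeR adjusted p = 0.794). Without liraglutide tumor 3 they were 0.29 and 0.05.

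Relations between the members were computed for 8 chosen pairs, and between each member and the summed CPM of 4 marker lists (fibroblast, endothelial, leukocyte and epithelial), 48 relations in all over the 10 tumors. On the log2 scale, 4 had an adjusted p under 0.05 by a permutation test with 100000 resamples. Id1 and Id3 went together across tumors, with Pearson's r = 0.93 (permutation p = 4.7e-04, adjusted p = 0.0141) and Spearman's rho = 0.83 (permutation p = 0.00408, adjusted p = 0.0392), and r was 0.86 without the 2 tumors farthest from the median of Id1. Since 3 tumors stood low in both genes, r was also taken over the other 7, a choice made after seeing the data, and was 0.62.

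The leukocyte list holds Ptprc, Cd53, Laptm5, Coro1a, Csf1r, Adgre1, Cd68 and Cd3e. All 8 were detected, and their sum was between 147 and 274 CPM with vehicle and between 173 and 292 CPM with liraglutide (exact permutation test, p = 0.381, adjusted p = 0.787 over the 8 lists). Bmp7 was lower in tumors with more leukocyte marker RNA, with r = -0.93 (permutation p = 8.0e-04, adjusted p = 0.0141) and rho = -0.88 (permutation p = 0.00163, adjusted p = 0.0365), and with r = -0.86 without the 2 tumors farthest from the median of the leukocyte sum. Id1 was higher in such tumors, with r = 0.87 (permutation p = 8.8e-04, adjusted p = 0.0141) and rho = 0.90 (permutation p = 8.3e-04, adjusted p = 0.0365), and with r = 0.74 without those 2 tumors. Bmp4 was higher too, with r = 0.83 (permutation p = 0.00352, adjusted p = 0.0422), rho = 0.87 (permutation p = 0.00234, adjusted p = 0.0365) and r = 0.63 without them. Over the 7 tumors that were not low in Id1 and Id3, r was -0.80 for Bmp7, 0.62 for Id1 and 0.68 for Bmp4. With the mean of each treatment group subtracted, an alternative chosen after seeing the data, r was 0.93 for Id1 with Id3 (exact permutation within groups, adjusted p = 0.0433). For the leukocyte sum it was -0.92 with Bmp7 (adjusted p = 0.0483), 0.86 with Id1 (adjusted p = 0.0483) and 0.89 with Bmp4 (adjusted p = 0.0433), by the same permutation, and these 4 were the ones under 0.05. All values of a tumor share its library. None of the 48 relations had an adjusted p under 0.05 without vehicle tumor 2 or without liraglutide tumor 3, by exact permutation of 9 tumors. The relation of Bmp4 with the leukocyte sum was the least stable of the 4, with an adjusted p over 0.05 without any one of vehicle tumors 1 (0.102), 2 (0.115), 4 (0.0929) and 5 (0.0580) or liraglutide tumors 3 (0.108), 4 (0.0938) and 5 (0.0691). That of Id1 with the leukocyte sum also had an adjusted p over 0.05 without vehicle tumor 4 (0.0539) or liraglutide tumor 4 (0.0501). For the other members, r with the leukocyte sum had a permutation adjusted p over 0.05. It was -0.81 for Tgfb1 (0.0573), 0.75 for Tgfbr2 (0.0786), -0.74 for Inhba (0.0786) and 0.70 for Id3 (0.107). It was -0.47 for Smad7, -0.34 for Tgfb3 and 0.13 for Tgfb2. By exact permutation, the adjusted p was 0.0358 for Tgfb1 without vehicle tumor 5 and 0.0168 for Tgfbr2 without liraglutide tumor 1.

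**Figure D2:**
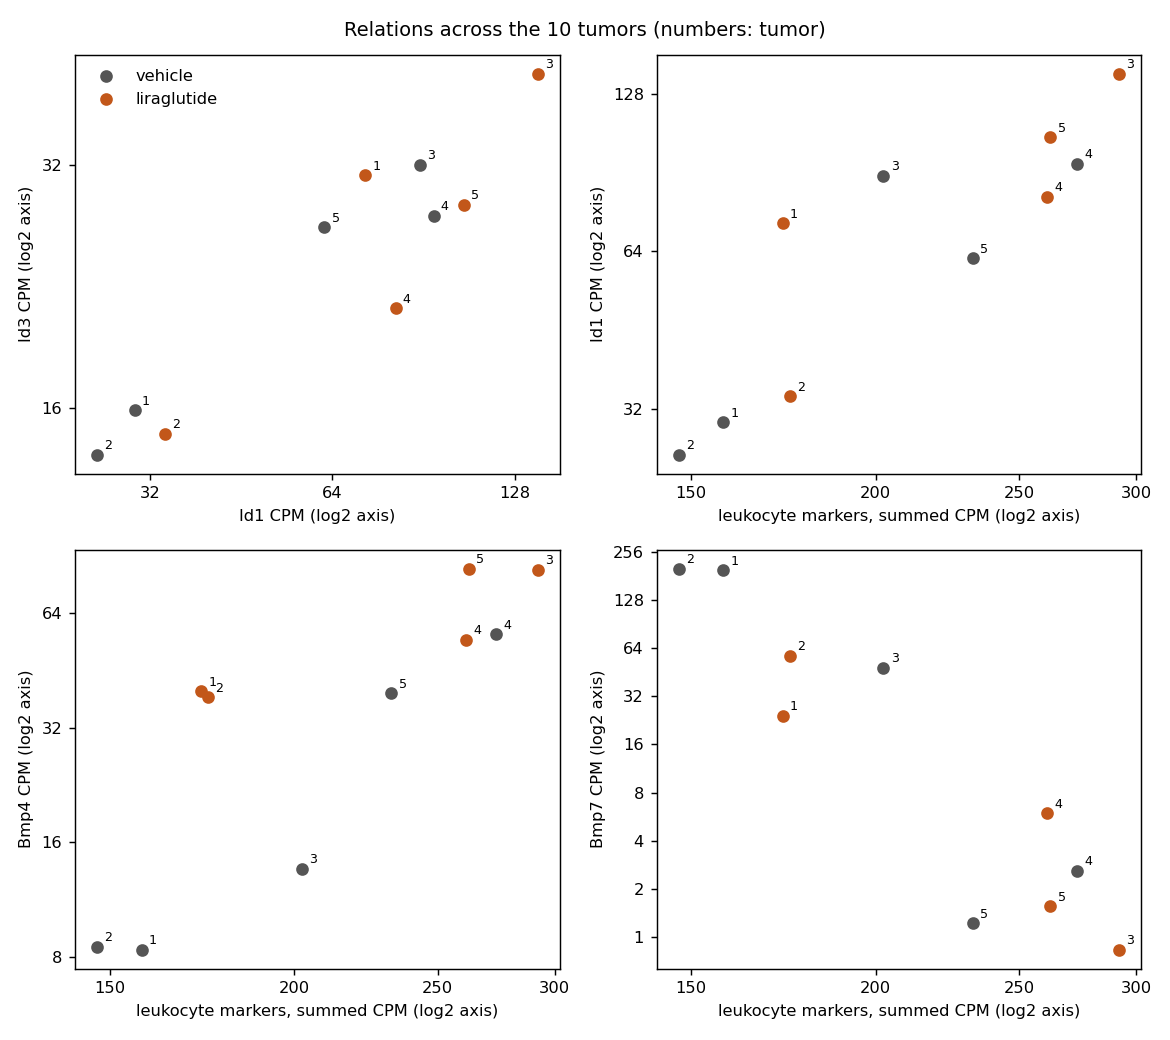
Relations over the 10 tumors, both axes in CPM on log2 axes, for Id1 against Id3 and for Id1, Bmp4 and Bmp7 against the summed leukocyte markers. Each point is a tumor with its number, vehicle in grey and liraglutide in orange, and r is 0.93, 0.87, 0.83 and -0.93 in that order.

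Over all 10 tumors, the relations of ligands with target genes had an adjusted p over 0.05 for r, and some were under it in alternatives. Bmp4 and Id1 had r = 0.75 (permutation p = 0.0126, adjusted p = 0.0753) and rho = 0.85 (permutation p = 0.00304, adjusted p = 0.0365). Their r was 0.36 without the 2 tumors farthest from the median of Bmp4, a step that also narrows the range of Bmp4. With single tumors left out, r was between 0.65 and 0.89. Its adjusted p was 7.9e-04 without vehicle tumor 3 and 0.0290 without liraglutide tumor 2. Bmp7 and Id1 had r = -0.82 (permutation p = 0.00531, adjusted p = 0.0510) and rho = -0.78 (permutation p = 0.0106, adjusted p = 0.0638), and r = -0.61 without the 2 farthest tumors. The adjusted p of that r was 0.0447 with library size alone, 0.0490 with DESeq2 size factors, 0.0126 without vehicle tumor 3, 0.0168 without vehicle tumor 5 and 0.0379 without liraglutide tumor 2. Smad7 had r = 0.79 with Tgfb1 (permutation p = 0.00836, adjusted p = 0.0573), rho = 0.75 (permutation p = 0.0174, adjusted p = 0.0838) and r = 0.60 without 2 tumors, and its adjusted p was 0.0379 without liraglutide tumor 2. With Inhba, Smad7 had r = 0.72 (permutation p = 0.0197, adjusted p = 0.0786), rho = 0.68 (permutation p = 0.0347, adjusted p = 0.151) and r = 0.43 without 2 tumors. Id1 and Smad7 had r = -0.11 (permutation p = 0.766, adjusted p = 0.886) and rho = -0.21 (permutation p = 0.561, adjusted p = 0.748), and r = 0.12 without 2 tumors.

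The genes most like each member were taken as the highest Pearson r of log2 CPM over the 10 tumors among 11816 tested genes with a mean of at least 5 CPM, as a description. For Bmp7 the highest was Wwtr1, which encodes the transcriptional coactivator TAZ, at r = 0.99, and for Tgfbr2 it was Lamb2, a laminin β chain gene, at r = 0.99. Bmp4 was closest to Tmie, Ciita, the master regulator of MHC class II genes, and Itih2, each at r = 0.98. Tgfb1 was closest to Creb3l2, which encodes a membrane-bound transcription factor, at r = 0.99, and Smad7 to the basement membrane gene Nid1, at r = 0.97. The closest to Inhba was Diaph2, a formin gene, at r = 0.98, and to Tgfb3 it was the Wnt receptor gene Fzd1, at r = 0.94. Id1 was closest to Zdhhc9 (r = 0.98), Id3 to the glutathione peroxidase gene Gpx1 (r = 0.96) and Tgfb2 to Heatr5b (r = 0.95). Each is the top of a search over many genes with few tumors.

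Beyond the members, 96 other genes of the pathways were listed by role, with earlier results of these data known, and 80 of them were tested. At an unadjusted p under 0.05, 12 of the 80 were higher with liraglutide and 1 was lower, against 3.97% higher and 5.62% lower of all tested genes (9.59% in either direction), and 0 had an adjusted p under 0.05 by edgeR. Their median log2 fold change was 0.03, with 44 of the 80 positive. The counts by role that follow are to be read against the same shares of all tested genes.

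Among 13 tested genes that store or activate the ligand, 3 had an unadjusted p under 0.05, all higher, and the median log2 fold change was 0.07. Ltbp4, which encodes a latent TGF-β binding protein of the matrix, was at 30.8, 39.5, 29.6, 37.8 and 45.7 CPM with vehicle and at 67.6, 64.1, 39.5, 52.4 and 56.9 CPM with liraglutide. Apart from liraglutide tumor 3, every liraglutide tumor lay above all vehicle tumors (log2 fold change 0.61, standard error 0.17, edgeR p = 0.00357, adjusted p = 0.482; exact permutation test, p = 0.0238). Thbs1 encodes thrombospondin 1, which can release TGF-β from its latent form, and was between 201 and 322 CPM with vehicle and between 295 and 397 CPM with liraglutide (log2 fold change 0.46, standard error 0.14, edgeR adjusted p = 0.482). The third was Itgb6, an integrin subunit that activates TGF-β on epithelium, between 4.01 and 25.8 CPM with vehicle and between 12.2 and 67.3 CPM with liraglutide, named here after its values were seen (log2 fold change 1.51, standard error 0.56, edgeR adjusted p = 0.494).

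Of 9 tested extracellular antagonists, 3 were higher and 1 was lower at an unadjusted p under 0.05, with a median log2 fold change of 0.29. Follistatin, the activin-binding protein encoded by Fst, was at 6.29, 7.10, 6.40, 6.69 and 5.62 CPM with vehicle and at 10.6, 7.02, 10.4, 19.2 and 10.3 CPM with liraglutide. Its vehicle tumors lay within a narrow range, and 4 of 5 liraglutide tumors were above it (log2 fold change 0.84, standard error 0.24, edgeR p = 0.00455, adjusted p = 0.482; exact permutation test, p = 0.0159). Twsg1, which encodes a BMP-binding protein, was the one tested gene of the pathway lists whose groups did not overlap, at 79.4 to 99.8 CPM with vehicle and 104 to 127 CPM with liraglutide, against 0.607% of all tested genes not overlapping and higher. The log2 fold change of Twsg1 was 0.30 (standard error 0.10, edgeR adjusted p = 0.482). Fstl3, a relative of follistatin, was low in both groups, with a log2 fold change of -1.01 (standard error 0.42, edgeR adjusted p = 0.509) that was -0.48 without vehicle tumor 3.

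Intracellular and membrane inhibitors held 3 higher and 0 lower genes among 9 tested, with a median log2 fold change of 0.22. Smad6, the inhibitory SMAD of the BMP branch, was at 4.15, 3.95, 7.45, 8.87 and 6.76 CPM with vehicle and at 16.0, 4.98, 19.7, 12.8 and 14.3 CPM with liraglutide. All liraglutide tumors except number 2 were above every vehicle tumor, with a log2 fold change of 1.12 (standard error 0.35, edgeR p = 0.00768, adjusted p = 0.482; exact permutation test, p = 0.0397). The start-site window of Smad6 printed above is the one that held GTCTAGAC, from 4 bases before the start. Ski, which encodes a corepressor of SMAD proteins, was between 150.5 and 221 CPM with vehicle and between 196 and 256 CPM with liraglutide (log2 fold change 0.42, standard error 0.12, edgeR adjusted p = 0.482). Ldlrad4, whose product keeps SMAD2 and SMAD3 from the receptor, was between 24.5 and 33.6 CPM with vehicle and between 33.4 and 37.6 CPM with liraglutide (log2 fold change 0.36, standard error 0.11, edgeR adjusted p = 0.482).

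Among 19 tested TGF-β response genes, 3 were higher and 0 lower at an unadjusted p under 0.05, with a median log2 fold change of 0.11. They were Ldlrad4, Ccn2 and Tgfbi. Ccn2, which encodes connective tissue growth factor, was at 41.5, 40.9, 61.9, 76.2 and 46.6 CPM with vehicle and at 98.1, 50.9, 98.8, 91.2 and 89.4 CPM with liraglutide, and 4 of 5 liraglutide tumors exceeded all vehicle tumors (log2 fold change 0.68, standard error 0.22, edgeR adjusted p = 0.482). In 9 tested BMP response genes, 2 were higher and 0 lower, Smad6 and Atoh8, with a median log2 fold change of -0.10. Atoh8, a basic helix-loop-helix factor gene, was at 7.32, 4.56, 7.56, 36.5 and 24.5 CPM with vehicle and at 36.1, 16.7, 72.2, 37.1 and 42.7 CPM with liraglutide (log2 fold change 1.34, standard error 0.56, edgeR p = 0.0348, adjusted p = 0.510; exact permutation test, p = 0.0556). Vehicle tumors 1, 2 and 3 were its lowest, as for Bmp4.

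In the remaining parts of the pathway no gene had an unadjusted edgeR p under 0.05. Of 13 other tested receptors, 7 had a positive log2 fold change, and the smallest p was that of the activin receptor gene Acvr2a, at 59.0 to 69.8 CPM with vehicle and 49.8 to 62.2 CPM with liraglutide (log2 fold change -0.19, standard error 0.09, edgeR p = 0.0654, adjusted p = 0.539; exact permutation test, p = 0.0238). Among 7 tested genes of the signal-transducing SMAD group, 2 were positive, and the smallest p was that of Zfyve9, which encodes a SMAD anchor, with a log2 fold change of -0.20 (standard error 0.10, edgeR adjusted p = 0.561). Of 9 other tested ligands 2 were positive, with a smallest p for the BMP ligand gene Bmp5, whose log2 fold change was 0.34 (standard error 0.19, edgeR adjusted p = 0.5799). Another 10 listed ligands, among them Nodal, Mstn and Bmp6, did not pass the filter on low counts.

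**Figure D3:**
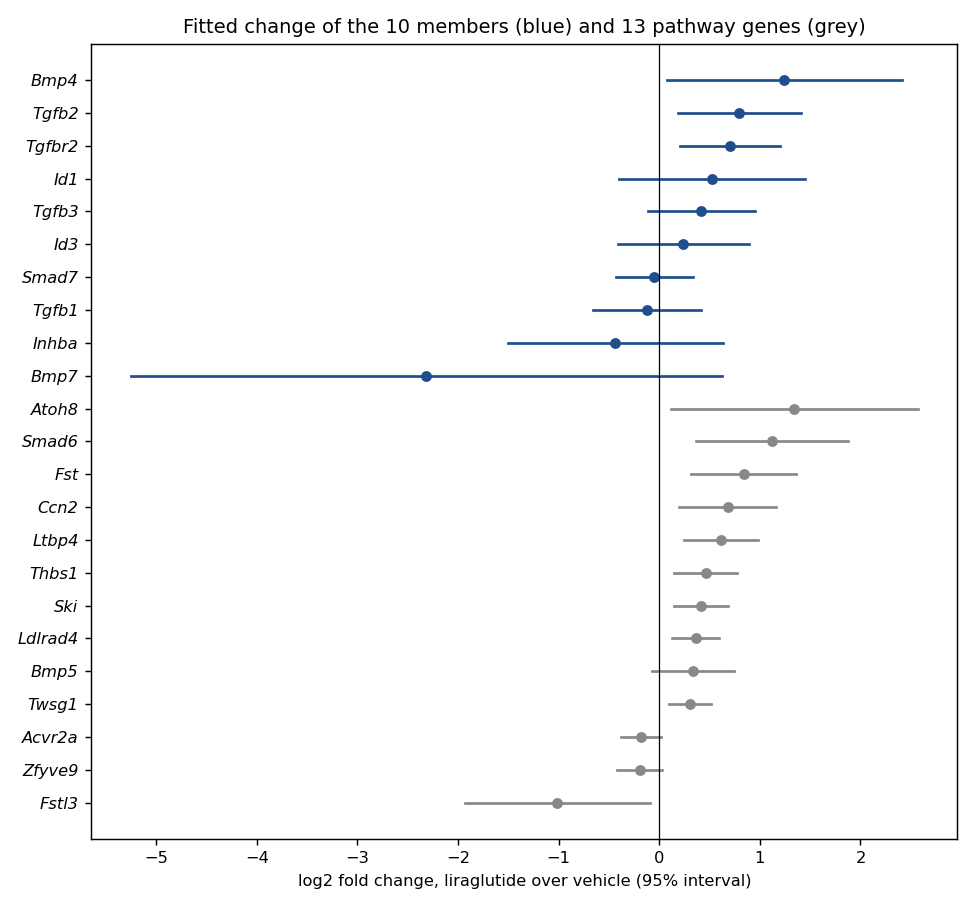
Log2 fold change of liraglutide over vehicle from edgeR with its 95% interval, for the 10 members in blue and 13 other pathway genes in grey. The widest interval is that of Bmp7, from -5.26 to 0.62, and those of Bmp4, Tgfb2 and Tgfbr2 lie above 0 before adjustment for multiple tests.

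**Figure D4:**
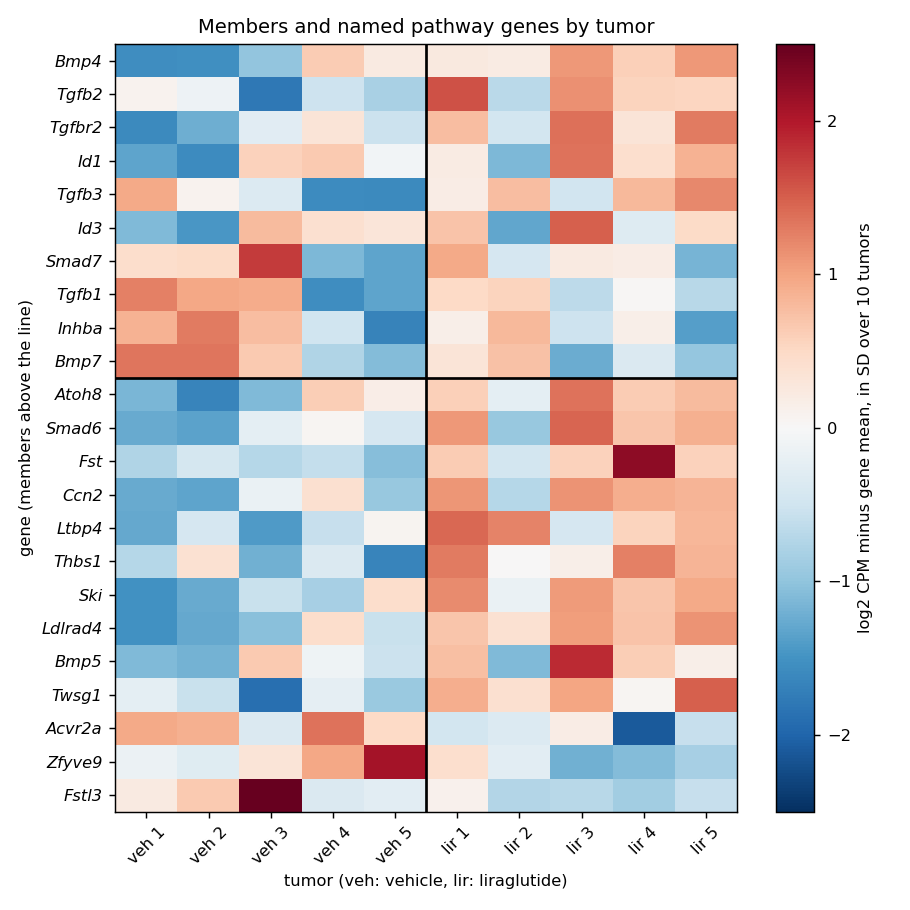
Level of the 10 members (above the horizontal line) and 13 pathway genes in each tumor, as log2 CPM minus the gene's mean in units of its SD over the 10 tumors, red above and blue below the mean. Vehicle tumors 1 and 2 are low in Bmp4, Id1, Id3, Atoh8 and Smad6 and high in Bmp7, Inhba and Tgfb1.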

How the data were processed

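RNA of 10 tumors (n = 5 per group) was analysed. Per the study's methods, the authors mapped read pairs with Bowtie 1.0.1 and TopHat 2.0.13 to GRCm39, counted them per gene with featureCounts and left out samples at quality assessment. The submitters' processing notes name mm10 and GRCh38, so the build is not settled. The deposited values are raw counts per Ensembl gene. The annotation release, strand setting and handling of multimapping reads are not given in the sources used here, so overlapping genes carry that uncertainty. Symbols, positions and exon lengths came from GENCODE M39 on GRCm39, which matched 51731 (93.4%) of the identifiers and 98.3% of the counts.

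Genes were filtered (filterByExpr), scaled by TMM and tested with edgeR 4.0.16 in R 4.3.3, with treatment as the single factor. DESeq2 1.42.0 and limma-voom (limma 3.58.1) were alternatives, as were other scalings and filters, the tumor number as a block and each tumor left out. The methods were tested on simulated data. Log2 CPM (prior count 2) of single genes was permuted exactly over the tumors, two-sided, which allows no p under 0.00794 and was not adjusted. Intervals are 95%, and floors of 3 counts cover counting error only. Tumors are the replicates, and p-values of group differences set the difference against the spread between these samples. The labels do not say that each came from a separate mouse.

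Named genes were the 10 members and, from each pathway list, up to 2 higher and 2 lower genes of smallest unadjusted p under 0.05, or the gene of smallest p. Members and lists were chosen with earlier results of these data known. The genotype of the cell line and the values of some listed genes are not reported here.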

Additional observations from a re-analysis of the deposited data

Results flagged for a closer look

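In groups of 5 tumors, a tumor was looked at again where its gap to the nearest other tumor was more than 0.710 of the group's whole range. Of 62 groups examined, 3 had such a tumor, and chance gives about 1 in 20. Fstl3 was at 4.305 CPM in vehicle tumor 3, above the other vehicle tumors, and at 1.296 CPM in liraglutide tumor 1, above the other liraglutide tumors. Ccn2 was at 50.85 CPM in liraglutide tumor 2, below the other liraglutide tumors. No value of the 10 members stood out in this way.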

How the results depend on the processing

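Over 23 named genes, 409 of 413 log2 fold changes under the alternatives kept their direction and stayed uncalled. The exceptions were Tgfb1, at 0.0103 without vehicle tumor 1, and Smad7, at 0.00926 with library size alone, 0.0937 without vehicle tumor 3 and 0.0306 without liraglutide tumor 5. With single tumors left out, Tgfb1 ranged from -0.26 to 0.0103 and Smad7 from -0.13 to 0.0937. The number of genes called was 17 with DESeq2 and 9 with DESeq2 without independent filtering, and 0 in the other alternatives, and members called stayed at 0 in all. Genes at an unadjusted p under 0.05 ranged from 919 to 2704 with single tumors left out. The number of members with an exact permutation p under 0.05 was 2, and between 0 and 2 with single tumors left out (0 without liraglutide tumor 1, 3 or 5). The number of relations with an adjusted p under 0.05 was 4, and between 0 and 9 with single tumors left out (0 without vehicle tumor 2 or liraglutide tumor 3, 2 without vehicle tumor 4 or liraglutide tumor 4, 9 without liraglutide tumor 2).

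With the tumor number as a replicate block, 2585 genes had an unadjusted p under 0.05, 4 members did (Id1 in addition), and 0 genes passed the adjusted threshold. Paired by number, 0 members had an exact p under 0.05, where 5 pairs allow no p under 0.0625. Deviations from the group means correlated between same-numbered tumors at 0.354, 0.566, -0.0753, 0.0681 and 0.389, and not every tumor correlated best with its own number, so the numbers were not taken as pairs. The cause of these shifts was not tested. How much of the spread of each member came from counting was not tested, and counts were as low as 11 for Bmp7 in a single tumor.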
